A study of Mus musculus with 63 samples.

Results

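RNA immunoprecipitation (RIP) libraries made with an antibody against CHD2 were compared with those made with IgG. They come from Neuro2a, a mouse neuroblastoma cell line, and are the 4 libraries, 2 per antibody, that the labels name as CHD2IP and IgG among 63 samples of the series. All 24990 rows of their tables were used, and 14906 passed the filter on low counts and were tested. The wider study concerns *Chaserr*, a long noncoding RNA gene located next to *Chd2*, and the RIP asked which RNAs are recovered with the CHD2 protein. The cells carry no named genotype or treatment. Their lysate was sonicated and cleared by centrifugation, and 2 input libraries of the same cells are given beside the RIP as a level of reference. Ribosomal RNA was removed before library preparation. Nothing in the labels says that the libraries came from separate cultures, so p-values measure only the spread between these libraries, which may be technical.

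CHD2 is an ATP-dependent chromatin remodeller of the chromodomain family that acts at transcribed genes, and it is also known as a protein that contacts RNA. In a RIP the antibody pulls down the protein with the RNA attached to it, while IgG, which has no target in the cell, shows what sticks to beads and tubes. RNA is therefore read as recovered with the protein when it is more abundant with the specific antibody than with IgG. The files count reads on spliced RefSeq transcripts, so reads in introns are not counted, and exonic reads of spliced and unspliced RNA cannot be told apart.

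The libraries held 7621280 and 9090270 counts for CHD2, 20050487 and 11285112 for IgG, and 13746546 and 16038147 for the input. The CHD2 libraries were alike (Pearson r of log2 CPM across rows 0.96), whereas IgG 1 stood apart, with r = 0.912 to IgG 2 and 0.763 to 0.817 to the input libraries. The libraries also held RNA of genes that mark brain cells other than neurons. The summed level of 10 glial markers was 1800 and 1498 CPM (counts scaled to the total of the library) in the CHD2 libraries, 3968 and 2711 CPM in the IgG libraries and 1180 and 682 CPM in the input. None of the 10 was at 0 in all libraries, and 9 followed the same order of both IgG libraries above both CHD2 libraries above both inputs. Of 12 macrophage and leukocyte markers 6 followed it, with a sum of 364 and 231 CPM in IgG and 149 and 131 CPM with CHD2. *Cd3e*, which marks T cells, was at 0 in 5 of the 6 libraries. Of 9 fibroblast markers 4 followed it, with a sum of 925 and 896 CPM in IgG against 515 and 727 CPM with CHD2 and 886 and 1147 CPM in the input.

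*Mbp*, which encodes a myelin protein, stood at 2443 and 1710.1 CPM in IgG, 1103 and 955 CPM with CHD2 and 724 and 424 CPM in the input. *Phox2a*, a transcription factor gene of noradrenergic neuroblasts, stood at 11.5 CPM in IgG 1, 115 CPM in IgG 2, 80.1 and 99.3 CPM with CHD2 and 403 and 297 CPM in the input. IgG 1 was thus the library with the most glial RNA and the least *Phox2a*. Of the 24 neuroblastoma and neuronal markers all were detected, with a summed level of 5078 and 5538 CPM with CHD2, 4703 and 4853 CPM in IgG and 5912 and 5727 CPM in the input. Of these 24, 6 followed the order of the glial markers, *Rbfox3* and *Nefl* among them, while others such as *Tubb3* and *Mapt* did not. The source of the glial RNA in a neuroblastoma line was not tested. The part of this difference in cell type RNA in the results that follow was not tested, and counts without IgG 1 are given for all rows and for several classes.

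**Figure D1:**
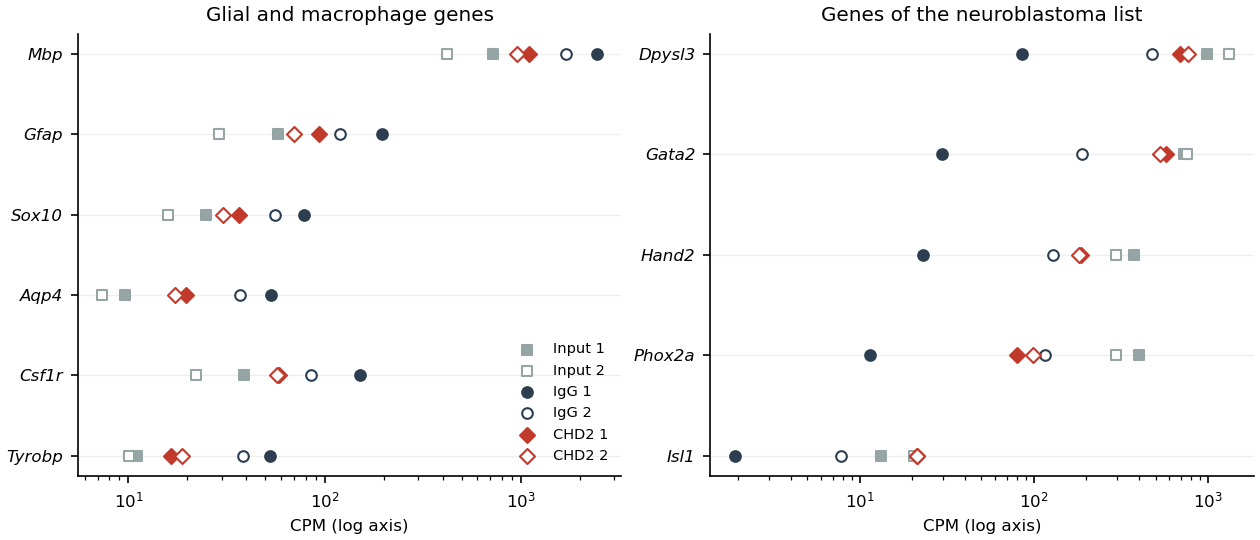
Level of glial and macrophage genes (left) and of genes of the neuroblastoma list (right) in each library, as CPM on a log axis; filled symbols are replicate 1 and open symbols replicate 2. *Mbp*, *Gfap*, *Sox10*, *Aqp4*, *Csf1r* and *Tyrobp* were highest in IgG and lowest in the input, and IgG 1 was the lowest library for *Gata2*, *Hand2*, *Phox2a*, *Dpysl3* and *Isl1*.

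More RNAs were recovered with CHD2 than were depleted from it. At an adjusted p under 0.05 (edgeR quasi-likelihood test with Benjamini-Hochberg adjustment, all 6 RIP libraries in the fit), 1651 rows were higher with CHD2 than with IgG and 56 were lower, which is 11.1% and 0.376% of the rows tested. The median log2 ratio of the 1651 rows was 2.09, against 0.02 over all rows tested. In 1513 of the 1651 (91.6%) both CHD2 libraries also lay above both input libraries, as they did for 64.7% of the 5192 rows in which both CHD2 libraries lay above both IgG libraries. Those 5192 rows were 34.8% of the rows tested, and the 4997 rows with both IgG libraries above both CHD2 libraries were 33.5%. At an unadjusted p under 0.05, 22.4% of rows were higher and 12% lower. Without IgG 1, 1679 rows (11% of 15240) were higher and 70 were lower (0.459%), and 1397 of the 1651 higher and 30 of the 56 lower rows were among these. The split depended on the scaling and on single libraries. Upper-quartile scaling gave 1410 higher and 1206 lower rows, and it moved the median of all rows to -0.28. Leaving out CHD2 1 or CHD2 2 gave 0 calls by edgeR, with 3435 and 2944 rows at an unadjusted p under 0.05, and leaving out IgG 2 gave 3465 higher and 3003 lower rows. DESeq2 with all libraries called 2460 higher (16.5%) and 1137 lower (7.63%).

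**Figure D2:**
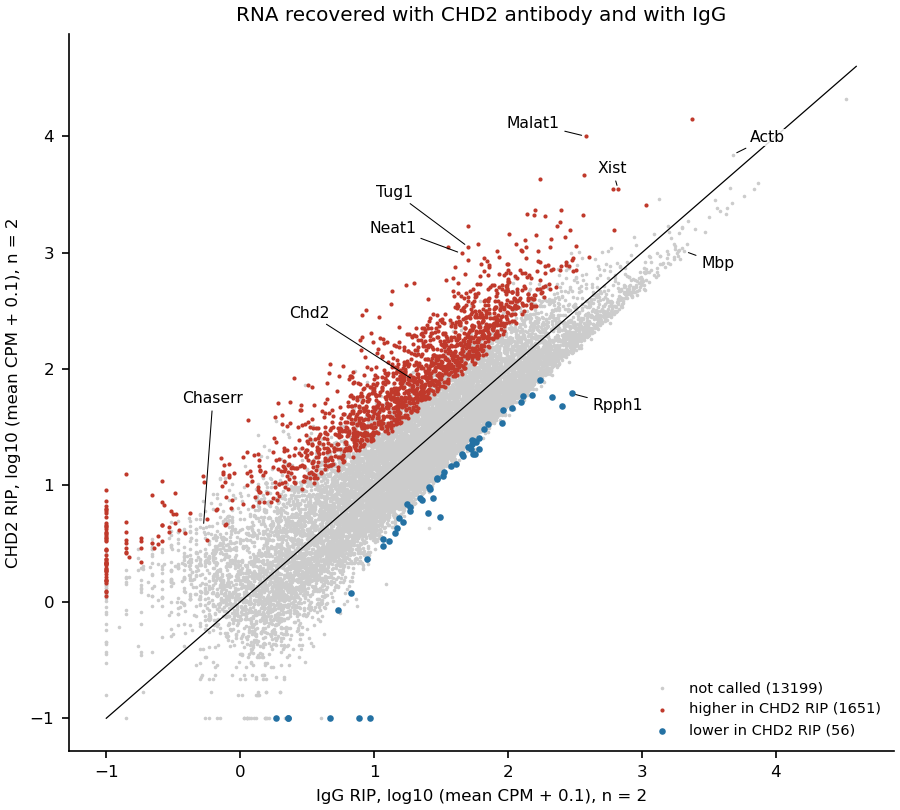
Mean level of each of the 14906 rows tested in the IgG libraries (x axis) and the CHD2 libraries (y axis), as log10 of the mean CPM + 0.1, with the line of equal levels. The 1651 rows called higher lie above the line, with *Malat1*, *Neat1* and *Tug1* among the most abundant, and the 56 rows called lower lie below it.

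Long noncoding RNAs that stay in the nucleus were among the abundant RNAs with the largest differences. *Malat1* (mm9 chr19:5795690-5802671, minus strand), the RNA of nuclear speckles, stood at 12435 and 7522 CPM with CHD2, 247 and 513 CPM with IgG and 408 and 997 CPM in the input. The CHD2 libraries were far above all others, with a log2 ratio of 4.72 ± 0.62 (SE, 26.3-fold; edgeR adjusted p = 0.00665). *Neat1* (chr19:5824708-5845478, minus strand), on which paraspeckles are built, stood at 869 and 1096 CPM with CHD2, 38.6 and 51.1 CPM with IgG and 17.4 and 42.1 CPM in the input, a log2 ratio of 4.45 ± 0.49 (edgeR adjusted p = 0.00606). *Tug1* (chr11:3539797-3548815, minus strand) stood at 1122 and 1118 CPM with CHD2, 32.4 and 68.1 CPM with IgG and 31 and 64.9 CPM in the input. Its log2 ratio was 4.48 ± 0.53 (edgeR adjusted p = 0.00631). For all of these RNAs the IgG and input libraries lay in the same range and the CHD2 libraries lay above it.

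*Malat1* and *Neat1* are neighbours on chromosome 19 and are known to end, after cleavage by RNase P, in a U-rich and A-rich structure in place of a poly(A) tail. Their 3′ ends are shown because it is a stretch of sequence that both of these strongly recovered RNAs hold. The sequences are those of the mm9 genome on the minus strand, chr19:5795962-5796085 for *Malat1* and chr19:5824708-5824817 for *Neat1*, and capitals mark the stretches of at least 10 bases that both hold.
Malat1: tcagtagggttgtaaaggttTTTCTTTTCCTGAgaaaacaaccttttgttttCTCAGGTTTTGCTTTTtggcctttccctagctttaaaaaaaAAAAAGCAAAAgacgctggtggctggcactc
Neat1: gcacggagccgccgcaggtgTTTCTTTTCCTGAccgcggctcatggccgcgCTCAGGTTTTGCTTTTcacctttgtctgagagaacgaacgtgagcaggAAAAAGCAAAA
Comparing the last 400 bases of both RNAs gave 3 such stretches, TTTCTTTTCCTGA, CTCAGGTTTTGCTTTT and AAAAAGCAAAA, in the same order and without overlap. They span 84 bases in *Malat1* and 90 bases in *Neat1*. Among the last 400 bases of 13990 annotated genes with a tested row, read on the transcript strand, the first was found in 3, the second in 2 and the A-rich one in 25 (0.179%). All of them in this order were found in 2 genes (0.0143%), which were *Malat1* and *Neat1*, and in 0 on the opposite strand.

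RNAs of the X-inactivation centre were also higher with CHD2. *Xist* (chrX:100655714-100678556, minus strand), which coats the inactive X chromosome, stood at 3397 and 3587 CPM with CHD2, 400 and 928 CPM with IgG and 43.8 and 101 CPM in the input. Its log2 ratio was 2.40 ± 0.53 (edgeR adjusted p = 0.0242), and unlike *Malat1* it was also higher in IgG than in the input in every library. The summed glial markers were likewise higher in IgG than in the input, and the source of the *Xist* RNA was not tested. *Jpx*, an activator of *Xist*, stood at 26.8 and 19.3 CPM with CHD2 against 2.2 and 4.04 CPM with IgG (log2 ratio 2.90 ± 0.50, edgeR adjusted p = 0.0105). *Ftx*, a noncoding gene of the same region, stood at 30 and 64.8 CPM against 13.6 and 10.5 CPM (log2 ratio 1.97 ± 0.43, edgeR adjusted p = 0.0222). In both, the CHD2 libraries were above the IgG libraries.

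Imprinted noncoding RNAs divided. *Kcnq1ot1*, the antisense RNA of a maternally expressed cluster, stood at 172 and 156 CPM with CHD2 against 35.1 and 59.7 CPM with IgG (log2 ratio 1.79 ± 0.45, edgeR adjusted p = 0.0374). *Snhg14*, the host RNA of the Prader-Willi snoRNA cluster, stood at 13.7 and 7.35 CPM against 0.383 and 0.97 CPM (log2 ratio 3.99 ± 0.73, edgeR adjusted p = 0.0126). *Gnasas1* stood at 22.9 and 41.6 CPM against 0.479 and 3.8 CPM (log2 ratio 3.97 ± 0.85, edgeR adjusted p = 0.0213). In these 3 the CHD2 libraries were above the IgG libraries. Reads of *Kcnq1ot1*, *Gnasas1* and other antisense RNAs cannot be told from those of the genes opposite if strand was not used in counting, which the sources used here do not give. *Rian*, of the Dlk1 and Meg3 cluster, stood at 108 and 86.2 CPM with CHD2, 180 and 131 CPM with IgG and 63.6 and 34.9 CPM in the input, and was not called (log2 ratio -0.68 ± 0.36, edgeR adjusted p = 0.207). *Peg13* was not called either (log2 ratio 0.37 ± 0.30, edgeR adjusted p = 0.385), and without CHD2 2 its ratio was -0.10. *Airn* had a log2 ratio of 1.09 ± 0.66 (edgeR adjusted p = 0.26).

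Among the 21 nuclear long noncoding RNAs of the list that were tested, of 24 with a row, 10 were higher with CHD2 (47.6%, against 11.1% of all rows) and 0 were lower by edgeR. At an unadjusted p under 0.05, 12 were higher and 2 lower, and DESeq2 called 11 higher and 0 lower. Their median log2 ratio was 1.79 against 0.02 over all rows, and 1.37 without IgG 1, where 11 were called. The tenth called member was *Pvt1*, the RNA gene next to *Myc*, with 81.8 and 65.4 CPM against 29 and 30.2 CPM (log2 ratio 1.31 ± 0.28, edgeR adjusted p = 0.0224). *Xist*, *Kcnq1ot1*, *Ftx*, *Gnasas1* and *Pvt1* each lost their call in at least 1 alternative with all libraries, with adjusted p up to 0.0685, whereas *Malat1*, *Neat1*, *Tug1*, *Jpx* and *Snhg14* kept theirs in each of these that tested them.

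Not every RNA of the list was higher with CHD2, and those named in this paragraph were not called in either direction by edgeR. *Rian*, *Miat*, *Firre* and *Dlx6os1* had negative ratios, from -1.81 to -0.68, and 4 of the 21 RNAs followed the order of the glial markers, with both IgG libraries above both CHD2 libraries and these above both inputs. *Miat*, an RNA abundant in neurons, stood at 146 and 103 CPM in IgG, 73.7 and 64.4 CPM with CHD2 and 44.7 and 27.2 CPM in the input. *Norad*, a mostly cytoplasmic RNA that binds Pumilio proteins, stood at 333 and 241 CPM with CHD2 and 446 and 339 CPM with IgG (log2 ratio -0.45 ± 0.33, edgeR adjusted p = 0.335). The level of *Oip5os1* overlapped between antibodies, and its log2 ratio of 0.04 turned negative under 5 of the other settings with all libraries. *Rmst* was at 0 in both CHD2 libraries and both inputs, with 1.05 and 1.29 CPM in IgG, which is at least 6.16-fold lower with CHD2 against a floor of 3 counts over the CHD2 libraries (edgeR adjusted p = 0.0922).

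**Figure D3:**
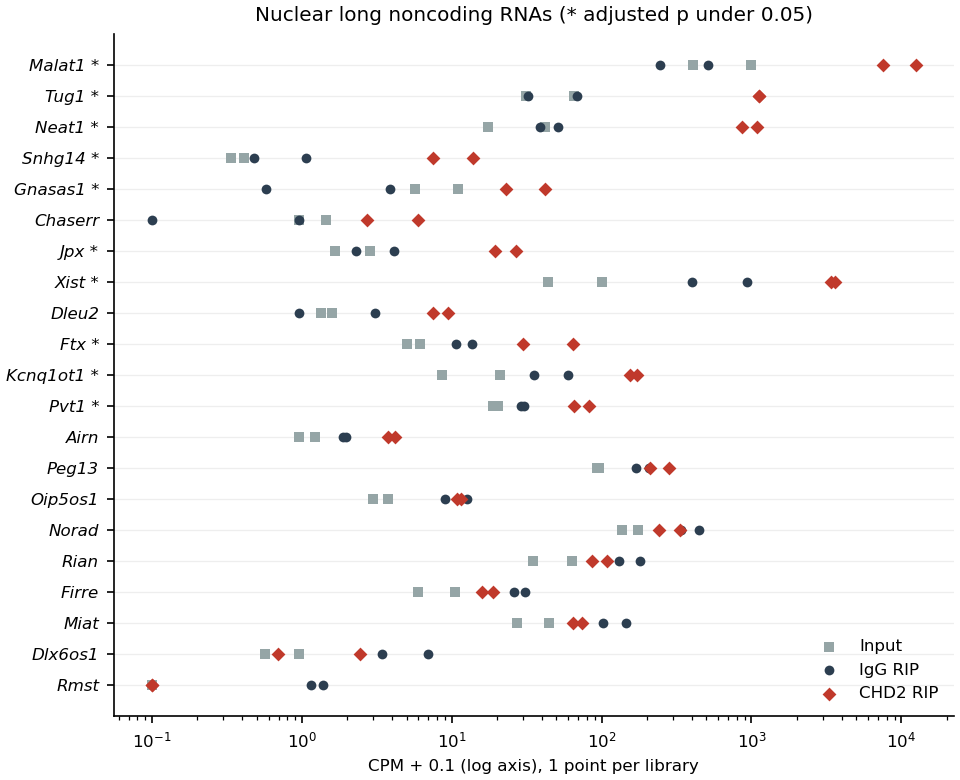
Level of the 21 tested nuclear long noncoding RNAs in each of the 6 libraries, as CPM + 0.1 on a log axis, ordered by log2 ratio; asterisks mark an adjusted p under 0.05. The CHD2 libraries lie to the right of IgG and input for the 10 called RNAs, and between input and IgG for *Rian*, *Firre* and *Miat*.

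*Chaserr* and *Chd2* were examined in every library. *Chaserr* was rare in these counts, with 43 and 22 reads in the CHD2 libraries and 18 and 0 reads in the IgG libraries. This corresponded to 5.89 and 2.61 CPM with CHD2, 0.862 and 0 CPM with IgG and 0.863 and 1.36 CPM in the input. Both CHD2 libraries were above all others, with a log2 ratio of 3.17 ± 1.23 (8.98-fold), and the difference did not pass the threshold (edgeR adjusted p = 0.114). Over the alternatives its adjusted p ranged from 0.00233, without IgG 1, to 0.422, and with all libraries from 0.0541 to 0.148. The IgG libraries alone differed by 18 against 0 reads. Per length, *Chaserr* stood at 18.5 and 8.45 TPM (a level that takes transcript length into account) with CHD2 and *Chd2* at 21 and 20.6 TPM. The annotation used here places *Chaserr* nowhere, so no position is given.

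*Chd2* mRNA (chr7:80571577-80686632, minus strand, 39 exons) was higher with the antibody against its own protein. It stood at 81.6 and 78.4 CPM with CHD2, 18.5 and 20.9 CPM with IgG and 21.7 and 25.7 CPM in the input. The log2 ratio was 2.02 ± 0.29 (4.05-fold; edgeR adjusted p = 0.00721), the groups did not overlap, and the ratio was 1.94 without IgG 1. Of the 10 CHD remodeller genes tested, 2 were higher (20%) and 0 lower by edgeR, against 11.1% higher of all rows and 27% of those over 6 kb. At an unadjusted p under 0.05, 6 were higher and 0 lower, and DESeq2 called 5 higher and 0 lower. Their median transcript was 8630 bases. The median log2 ratio was 1.29, 1.00 without IgG 1 and 0.77 with the length trend subtracted. The other called gene was *Chd1*, a close relative of *Chd2*, at 52.4 and 62 CPM with CHD2 against 8.67 and 22.7 CPM with IgG (log2 ratio 1.87 ± 0.48, edgeR adjusted p = 0.0398). The more abundant *Chd4* and *Chd3*, of the NuRD complex, had log2 ratios of 1.10 ± 0.40 (edgeR adjusted p = 0.103) and -0.71 ± 0.33 (edgeR adjusted p = 0.159).

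*Cnot2* and *Actb* were examined because the study's own work names them. *Cnot2*, a subunit of the CCR4-NOT deadenylase, stood at 38.9 and 54.2 CPM with CHD2 and 8.71 and 19.5 CPM with IgG (log2 ratio 1.73 ± 0.43, edgeR adjusted p = 0.0351). *Chd1* and *Cnot2* each lost their call in 2 of 9 alternatives with all libraries, with adjusted p up to 0.0685 and 0.0638. *Actb* stood at 7664 and 6233 CPM with CHD2, 3737 and 5831 CPM with IgG and 17334 and 11999 CPM in the input. It was not called (log2 ratio 0.54 ± 0.40, edgeR adjusted p = 0.345), and both kinds of RIP held less of it than the input.

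Among rows that passed the filter, noncoding rows as a class were called higher more often than coding rows. Of 3916 noncoding rows 674 were tested, and of these 130 were higher (19.3%) and 3 lower, with a median log2 ratio of 1.34. A rare row could pass through the libraries of 1 group alone, and 31 of the 674 were at 0 in both libraries of 1 antibody. The noncoding median was 1.06 without a filter and 1.09 with at least 10 counts in every library. Of 13607 coding rows, 1445 were higher (10.6%) and 52 lower, with a median of -0.01. Rows that joined coding and noncoding transcripts lay between, with 76 of 625 higher and a median of 0.07. Without IgG 1 the median of noncoding rows was 1.27 and 179 of those tested were higher, and without CHD2 1 the median was 0.77, with that of all rows at -0.19. The noncoding median was larger for longer transcripts, from 0.86 under 1 kb (134 rows) over 0.90, 1.56 and 1.83 to 2.49 over 6 kb (18 rows, 10 of them higher).

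The share of all counts that fell on noncoding rows did not show this. It was 5.62 and 3.96% with CHD2, 5.05 and 4.03% with IgG and 2.03 and 1.7% in the input. A single row, gene number 100861531, whose symbol was not in the tables used here, took 2.46 and 1.47% of counts with CHD2, 4.13 and 2.98% with IgG and 1.16 and 0.746% in the input, and was not called (log2 ratio -0.69 ± 0.46, edgeR adjusted p = 0.298). Without that row the noncoding share was 3.16 and 2.49% with CHD2, 0.915 and 1.04% with IgG and 0.871 and 0.952% in the input. The exact two-sided permutation p was 0.333, the smallest that 2 against 2 libraries allow. The nuclear long noncoding RNAs of the list made up 1.81 and 1.34% of counts with CHD2 and 0.191 and 0.269% with IgG, most of it *Malat1* at 1.19 and 0.698% with CHD2.

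Small and structural RNAs were mostly too rare for a test. Of 103 small nucleolar RNA rows and 1038 microRNA precursor rows, 1 of each was tested and neither was called. *Rpph1*, the RNA of RNase P, was the called RNA among 4 structural RNAs tested. It stood at 53.7 and 69.3 CPM with CHD2, 460 and 138 CPM with IgG and 660 and 334 CPM in the input, a log2 ratio of -2.28 ± 0.58 (edgeR adjusted p = 0.0388). It was lower in CHD2 than in any other library, and without IgG 1 the call was lost (log2 ratio -1.16). *Rmrp*, the related RNA of RNase MRP, overlapped between antibodies at 393 and 114 CPM with CHD2 against 276 and 213 CPM with IgG. Its log2 ratio was 0.05 and took the other sign under several settings. Of 17 small nucleolar RNA host genes, 2 were higher by edgeR, *Snhg14* and *Snhg17*. This share of 11.8% was close to the 11.1% of all rows. At an unadjusted p under 0.05, 3 were higher and 2 lower, and DESeq2 called 2 higher and 1 lower. *Snhg17* stood at 130 and 80.5 CPM against 12.5 and 23.2 CPM (log2 ratio 2.56 ± 0.44, edgeR adjusted p = 0.0108).

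Transcript length went with the ratio across all classes. Of rows with transcripts under 1 kb 1.62% were higher (18 of 1108; median log2 ratio -0.55), of those of 1 to 2 kb 4.19% (139 of 3319; -0.28), of those of 2 to 4 kb 9.26% (574 of 6196; 0.07), of those of 4 to 6 kb 18.3% (496 of 2712; 0.38) and of those over 6 kb 27% (424 of 1571; 0.66). The median transcript of the higher rows was 4286 bases, against 2851 bases over all rows tested. Transcripts over 6 kb took 23.8 and 27.5% of counts with CHD2, 13.49 and 15.3% with IgG and 10.7 and 15.1% in the input (exact two-sided permutation p = 0.333, the smallest possible). Without CHD2 2 the median over 6 kb was 0.23, with that of all rows at -0.29.

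The length of single exons went with the ratio as well, and the length of the gene did so less. Rows whose longest exon was over 4 kb had a median log2 ratio of 0.72 with 31.3% higher, against -0.44 and 1.76% for those under 0.5 kb. By the span of the gene on the genome, the median was -0.33 under 10 kb, 0.02 at 10 to 30 kb, 0.34 at 30 to 100 kb and -0.14 over 100 kb, and without IgG 1 the medians at 10 to 30 kb and over 100 kb were -0.04 and 0.005. Genes with 1 exon had a median of 0.19 and 8.5% higher, and genes with over 10 exons had a median of 0.11 and 11.5% higher.

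Base composition separated rows within each length class. For rows with a coding transcript in the annotation, the median log2 ratio was 0.91 at a GC content under 42% (300 of 1233 higher, 24.3%) and -0.32 over 54% (147 of 4463, 3.29%). Among transcripts over 6 kb it was 1.73 under 42% GC, where 100 of 199 rows were higher (50.3%), and -0.07 over 54%, where 20 of 252 were higher (7.94%) and the median was 0.01 without IgG 1. In the same classes of GC content among transcripts of 1 to 2 kb it was 0.40 and -0.42. Length and GC content also bear on fragmentation, priming and amplification in a library, and their part in the ratio was not tested.

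**Figure D4:**
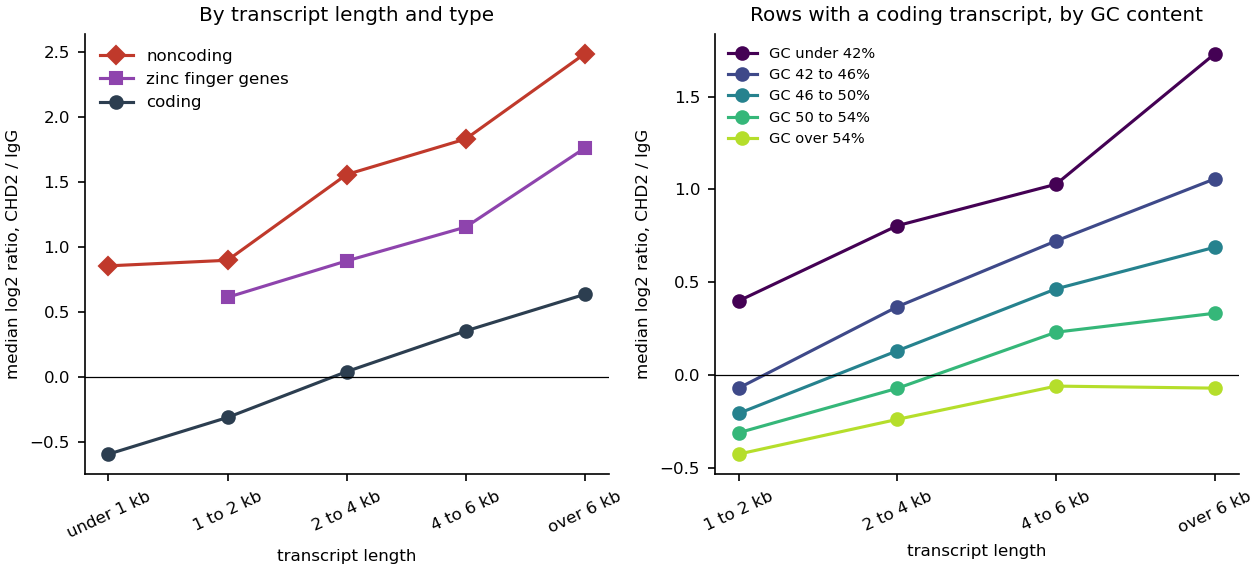
Median log2 ratio of CHD2 over IgG by transcript length, for noncoding rows, zinc finger genes and coding rows (left; classes of at least 10 rows) and for rows with a coding transcript in 5 classes of GC content (right). Noncoding rows and zinc finger genes lie above coding rows at each length, and the lines by GC content fan out from 0.40 to -0.42 at 1 to 2 kb to 1.73 to -0.07 over 6 kb.

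Zinc finger genes were the largest of the protein families examined, and they lay on the side of CHD2. These genes, with symbols of the Zfp, Zkscan and Zscan series, mostly encode C2H2 zinc finger proteins that bind DNA. Of 384 tested (of 417 with a row), 96 were higher (25%) and 0 lower by edgeR, with 181 higher and 8 lower at an unadjusted p under 0.05 and 137 higher and 4 lower by DESeq2. The median log2 ratio was 1.07, with 321 of 384 above 0, and 92 of the 96 also lay above both inputs in both CHD2 libraries. Without IgG 1 the median was 0.91 and 101 of 388 were higher. Coding rows that are no zinc finger gene had a median of -0.04 and 10.2% higher.

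In each class of length or GC content that held at least 10 zinc finger genes, their median lay above that of the coding rows. Zinc finger genes of 2 to 4 kb had a median of 0.90, against 0.04 for all coding rows of that length, and those over 6 kb a median of 1.76, with 24 of 39 higher, against 0.64. Below 42% GC the median was 1.74 for 109 zinc finger genes and 0.83 for 1061 other coding rows, and over 54% GC it was 0.26 for 63 and -0.33 for 4217. Subtracting the trend with length left a median of 0.82. In the whole libraries zinc finger genes took 1.54 and 1.63% of counts with CHD2, 0.595 and 0.775% with IgG and 0.729 and 0.897% in the input.

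The most abundant members were *Zfp871* and *Zfp488*. *Zfp871* stood at 713 and 897 CPM with CHD2, 49.2 and 76.3 CPM with IgG and 35.1 and 56.7 CPM in the input (log2 ratio 3.68 ± 0.41, edgeR adjusted p = 0.00606). *Zfp488*, a regulator of oligodendrocyte differentiation, stood at 837 and 839 CPM against 134 and 213 CPM (log2 ratio 2.27 ± 0.36, edgeR adjusted p = 0.00886). The CHD2 libraries were well above all others in both genes, and for *Zfp488* both IgG libraries were also above the input. The largest ratios were those of rare rows. *Zfp820* and *Zfp534* were at 0 in both IgG libraries and at 4.52 and 2.37 and at 2.46 and 2.02 CPM with CHD2, at least 38.2-fold and 24.8-fold higher against a floor of 3 counts over the IgG libraries. *Zfp53* had a log2 ratio of 4.47 ± 0.96 (edgeR adjusted p = 0.022). These genes have near-identical relatives, so how reads were divided among them is uncertain.

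The repeat that defines most of these genes is shown for *Zfp329* (mm9 chr7:13390326-13404207, minus strand), chosen after its values were seen for a high ratio at a good level. It stood at 99.6 and 86.8 CPM with CHD2 against 2.35 and 6.63 CPM with IgG (log2 ratio 4.40 ± 0.75, edgeR adjusted p = 0.0102). The stretch runs from base 700 to base 797 of its coding sequence, and capitals mark the codons of the linker between fingers, matched as ACNGGNGANAANCC, where N is any base.
Zfp329: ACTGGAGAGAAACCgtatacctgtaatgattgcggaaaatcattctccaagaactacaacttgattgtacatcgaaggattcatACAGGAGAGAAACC
*Zfp329* holds 7 such linkers. The motif was found on the coding strand in 511 of 22594 coding sequences (2.26%). The number of linkers went with the ratio only in part, and the median log2 ratio was 0.76 for 96 zinc finger genes with no linker in their transcript, 1.07 for 1 to 4, 1.06 for 5 to 9 and 1.32 for 10 or more, whereas the share called was 29.2, 26.9, 17.6 and 20.5%.

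Messenger RNAs of the machinery of transcription and splicing were among those recovered. Over all rows tested 11.1% were higher. Of 13 SR splicing factor genes, whose proteins select exons, 7 were higher (53.8%) and 0 lower by edgeR, with 8 higher and 0 lower at an unadjusted p under 0.05 and 7 higher and 0 lower by DESeq2. The median log2 ratio of the SR genes was 1.19. *Srsf10* stood at 1155 and 929 CPM with CHD2, 57 and 108 CPM with IgG and 106 and 193 CPM in the input (log2 ratio 3.66 ± 0.47, edgeR adjusted p = 0.00662). *Tra2a* and *Srsf3* had log2 ratios of 2.48 ± 0.40 (edgeR adjusted p = 0.00917) and 2.09 ± 0.39 (edgeR adjusted p = 0.0141). *Srsf9*, *Srsf5* and *Srsf12* had ratios below 0 and were not called. Of 25 hnRNP genes 5 were higher (20%), led by *Ptbp3*, a splicing repressor, at 425 and 235 CPM against 31.8 and 73.4 CPM (log2 ratio 2.65 ± 0.50, edgeR adjusted p = 0.0145). The median log2 ratio of the hnRNP genes was 0.514, and 0.215 without IgG 1, where 4 were higher. The core spliceosome, by contrast, had 2 of 42 higher (4.76%) and a median of -0.07. These were the kinase gene *Prpf4b* and *Prpf38b* (log2 ratio 3.02 ± 0.35, edgeR adjusted p = 0.00631), while *Prpf8*, the largest core subunit, overlapped between antibodies.

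Genes for elongation by RNA polymerase II divided by subunit. Of 39 tested, 13 were higher (33.3%, against 11.1% of all rows) and 1 lower, with a median log2 ratio of 0.51. Without IgG 1 the median was 0.34 and 12 were higher. The 13 higher ones included the kinases and cyclins *Ccnt1*, *Ccnt2*, *Cdk7*, *Cdk12* and *Cdk13*, the Mediator subunits *Med1*, *Med13* and *Med14* and the super elongation complex scaffolds *Aff1* and *Aff4*. *Ccnt1*, the cyclin of P-TEFb, stood at 181 and 236 CPM with CHD2, 19.7 and 37.3 CPM with IgG and 51.2 and 84 CPM in the input (log2 ratio 2.87 ± 0.42, edgeR adjusted p = 0.00748). Its kinase *Cdk9* was not called (log2 ratio 0.07). Within the PAF1 complex *Cdc73* was higher (log2 ratio 2.60) and *Leo1* was lower, with 3.83 and 2.96 CPM with CHD2 against 12.8 and 10.2 CPM with IgG (log2 ratio -1.76 ± 0.44, edgeR adjusted p = 0.0349). *Ctr9*, *Rtf1* and *Paf1* of the same complex were not called, with log2 ratios of -0.05, 0.10 and -0.60. Without IgG 1 *Leo1* was not called (log2 ratio -1.58).

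Of 72 other chromatin regulators, with a median transcript of 5927 bases, 23 were higher (31.9%) and 0 lower by edgeR. Over all rows 11.1% were higher, over those of 4 to 6 kb 18.3% and over those longer than 6 kb 27%. Of the 72 regulators, 42 were higher and 2 lower at an unadjusted p under 0.05, and DESeq2 called 33 higher and 1 lower. Their median log2 ratio was 1.02, and 0.53 after the trend with length was subtracted. Without IgG 1 the median was 0.77 and 16 of the 72 were higher. All 23 also lay above both inputs. *Tet3*, an enzyme that oxidizes methylated cytosine, stood at 959 and 1588 CPM with CHD2, 86.7 and 180 CPM with IgG and 166 and 275 CPM in the input (log2 ratio 3.26 ± 0.49, edgeR adjusted p = 0.00794). *Tet2* had a log2 ratio of 3.12 ± 0.57 (edgeR adjusted p = 0.0125). *Suz12*, *Ezh2* and *Eed*, core subunits of the Polycomb complex PRC2, were higher, *Suz12* with a log2 ratio of 2.50 ± 0.47 (edgeR adjusted p = 0.0141), *Ezh2* of 2.06 and *Eed* of 1.36, while their partners *Rbbp4* and *Rbbp7* were not called. *Kmt2a*, *Kmt2c* and *Kmt2d*, histone H3K4 methyltransferase genes with very long transcripts, had log2 ratios of 1.57, 1.65 and 1.18. *Eed*, *Kmt2c* and *Kmt2d* lost their calls without IgG 1, with adjusted p of 0.0793, 0.0508 and 0.0839 by edgeR.

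**Figure D5:**
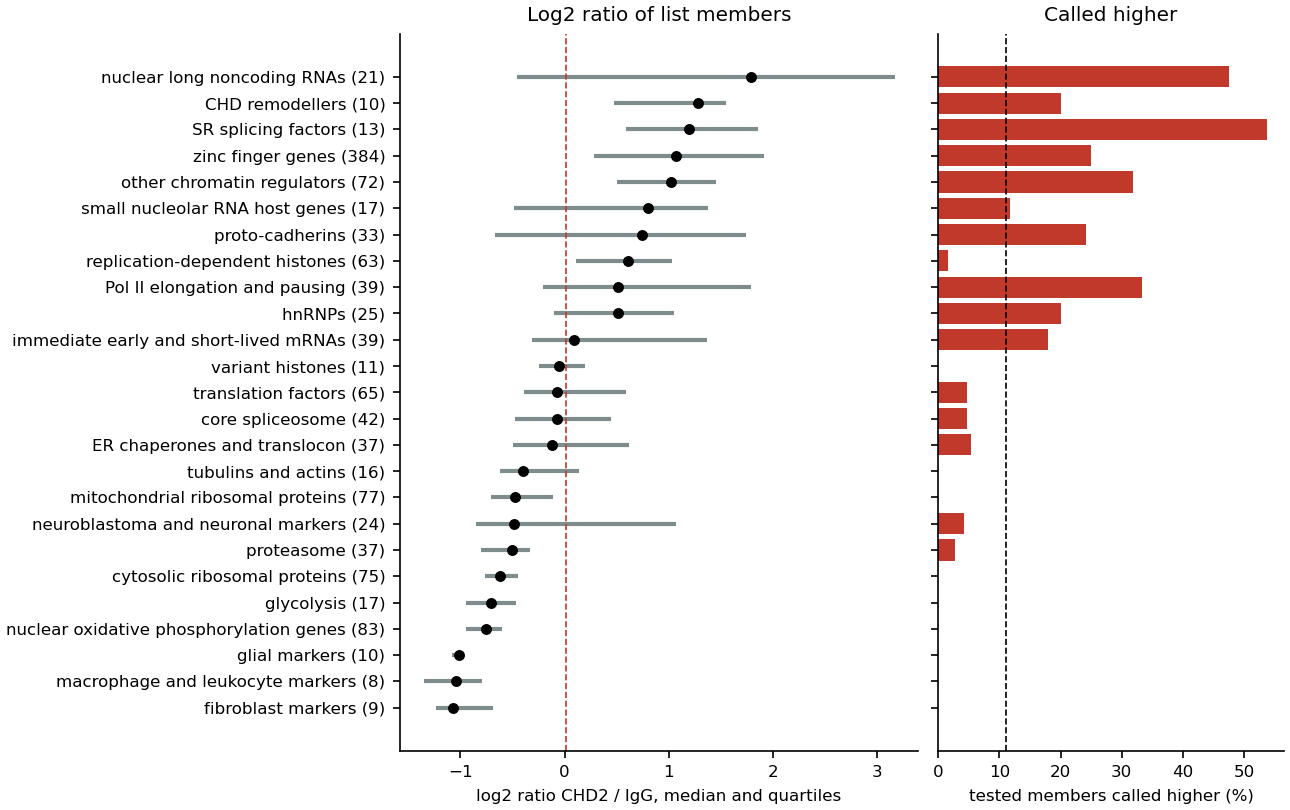
Log2 ratio of CHD2 over IgG for the members of each gene list with at least 8 tested members (left; point, median; bar, quartiles; number tested in parentheses) and the percentage of tested members called higher (right). Dashed lines mark the median and the percentage over all 14906 rows tested, 0.02 and 11.1%.

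Replication-dependent histone genes, which are intronless and make short mRNAs without a poly(A) tail, showed few calls. Of 63 tested, 1 was higher (1.59%) and 0 were lower by edgeR, with 8 higher and 0 lower at an unadjusted p under 0.05 and 2 higher and 0 lower by DESeq2. Their median log2 ratio was 0.61, but it was 0.22 without IgG 1, 0.23 without CHD2 1 and 0.95 without IgG 2. *H2bc21* (chr3:96025044-96027661, plus strand) was the called member, and at 2667 bases it is far longer than the median of the list, 480 bases. It stood at 57 and 38.4 CPM with CHD2, 7.66 and 5.74 CPM with IgG and 3.92 and 5.13 CPM in the input (log2 ratio 2.82 ± 0.38, edgeR adjusted p = 0.00665). The abundant *H3c2* overlapped between antibodies, with 133 and 231 CPM with CHD2, 79.2 and 241 CPM with IgG and 2744 and 1161 CPM in the input. Histone genes together took 0.387 and 0.301% of counts with CHD2 and 0.204 and 0.357% with IgG, against 2.49 and 1.26% in the input. The shares with CHD2 and with IgG overlapped (exact two-sided permutation p = 0.667), and both kinds of RIP held less histone mRNA than the input. Of 11 variant histone genes, 0 were called by edgeR (2 higher and 0 lower at an unadjusted p under 0.05, and 2 higher by DESeq2). The near miss was *H1f0*, at 1102 and 874 CPM against 149 and 441 CPM (log2 ratio 1.75 ± 0.49, edgeR adjusted p = 0.0532). Histone genes are near-identical copies, so counts of single members are uncertain.

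Messenger RNAs of abundant cytoplasmic machinery lay on the side of IgG, mostly below the threshold. Of 75 ribosomal protein genes 0 were called by edgeR, with 1 higher and 18 lower at an unadjusted p under 0.05 and the same numbers by DESeq2. Their median log2 ratio was -0.62, with 4 of 75 above 0, and it was -0.21 once the trend with length was subtracted. *Rpl41* stood at 848 and 1005 CPM with CHD2, 1357 and 1363 CPM with IgG and 3095 and 1777 CPM in the input (log2 ratio -0.55 ± 0.36, edgeR adjusted p = 0.294). Together these genes took 1.72 and 1.8% of counts with CHD2, 2.6 and 3.02% with IgG and 6.5 and 4.75% in the input.

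Nuclear genes of oxidative phosphorylation had a median log2 ratio of -0.75, with 0 of 83 higher and 2 lower by edgeR, 0 higher and 42 lower at an unadjusted p under 0.05, and 0 higher and 34 lower by DESeq2. The called genes were *Cox7b*, a subunit of cytochrome c oxidase, with 19.9 and 24.9 CPM with CHD2 against 61.2 and 47 CPM with IgG (log2 ratio -1.27 ± 0.31, edgeR adjusted p = 0.0342; 0.056 without IgG 1), and *Ndufa4* (log2 ratio -1.13 ± 0.30, edgeR adjusted p = 0.0466). Mitochondrial ribosomal protein genes had a median of -0.48 with 1 of 77 lower, *Mrpl54*, and proteasome genes had a median of -0.50 with 1 of 37 higher, the thymus-specific *Psmb11*, which stood at 3.29 and 3.2 CPM with CHD2. Glycolytic genes had a median of -0.70 and 0 of 17 called by edgeR, with 0 higher and 6 lower at an unadjusted p under 0.05 and 0 higher and 7 lower by DESeq2. *Gapdh* stood at 3919 and 4038 CPM with CHD2 and 8420 and 6185 CPM with IgG (log2 ratio -0.88 ± 0.39, edgeR adjusted p = 0.149). Tubulin and actin genes had 0 of 16 called by edgeR, with 0 higher and 2 lower both at an unadjusted p under 0.05 and by DESeq2.

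Translation factors, chaperones of the endoplasmic reticulum and immediate early genes were spread on both sides of 0. Of 65 translation factors 3 were higher (4.62%) and 1 lower, and *Eif4ebp2*, an inhibitor of cap-dependent translation, had a log2 ratio of 2.22 ± 0.42 (edgeR adjusted p = 0.0146), while *Eif1b* had one of -1.07 ± 0.28 (edgeR adjusted p = 0.0433; 0.103 without IgG 1). Of 37 genes of the endoplasmic reticulum 2 were higher (5.41%), *Ssr3* and *Ero1a*. Of 39 immediate early and short-lived mRNAs 7 were higher (17.9%, against 11.1% of all rows) and 0 lower by edgeR, with a median of 0.09. At an unadjusted p under 0.05, 10 were higher and 4 lower, as they were by DESeq2. *Egr1* stood at 1021 and 1262 CPM with CHD2, 298 and 348 CPM with IgG and 198 and 255 CPM in the input (log2 ratio 1.82 ± 0.32, edgeR adjusted p = 0.0117), and *Klf6* had a log2 ratio of 3.34 ± 0.57 (edgeR adjusted p = 0.0104).

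Of 33 protocadherin genes, cell adhesion genes mostly expressed from clusters, 8 were higher (24.2%, against 11.1% of all rows) and 0 lower by edgeR. Their median log2 ratio was 0.74, with quartiles of -0.67 and 1.74. At an unadjusted p under 0.05, 10 were higher and 6 lower, and DESeq2 called 9 higher and 3 lower. *Pcdhb21*, *Pcdhb15* and *Pcdhb2* led, *Pcdhb21* with 26.2 and 47.4 CPM with CHD2 against 2.25 and 4.45 CPM with IgG (log2 ratio 3.47 ± 0.59, edgeR adjusted p = 0.0102). Members of a cluster share sequence, and their counts may be divided between them.

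Of the 56 lower rows, 17 followed the order of the glial markers (30.4%, against 41.2% of the 4997 rows with both IgG libraries above both CHD2 libraries), among them *Aqp4*, the water channel of astrocytes, and *Tyrobp*, a microglial adaptor. *Aqp4* stood at 53.5 and 37.1 CPM in IgG, 19.6 and 17.2 CPM with CHD2 and 9.65 and 7.36 CPM in the input (log2 ratio -1.30 ± 0.34, edgeR adjusted p = 0.0417). *Aqp4* and *Tyrobp* lost their calls without IgG 1, with adjusted p of 0.111 and 0.0673 by edgeR. A further 6 followed the order of both inputs above both IgG above both CHD2 libraries, as did 676 of the 4997, and 6 were at 0 in both CHD2 libraries. *Pbld1* stood at 7.39 and 3.2 CPM with CHD2, 33.6 and 28.8 CPM with IgG and 42.5 and 29.5 CPM in the input (log2 ratio -2.56 ± 0.45, edgeR adjusted p = 0.0112).

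The rows with the largest ratios by size were rare and partly uncertain. The 10 higher rows with the largest log2 ratio at a mean FPKM of at least 1 were all at 0 in both IgG libraries. They were *Gm14391*, *Gm17801*, *Gje1*, *Gm14305*, *Slc6a18*, *Timm8a1*, *Gm15114*, *D630029K05Rik*, *Olfr171* and *6030440G07Rik*, at least 99.5-fold (*Gm14391*) to at least 49.4-fold (*6030440G07Rik*) higher with CHD2 against the floor of 3 counts. Among all higher rows 48 were at 0 in IgG. *Timm8a1*, which encodes a mitochondrial chaperone, was listed in a pair of rows, and these moved in opposite directions. Its row for an accession placed at several loci stood at 6.3 and 5.57 CPM with CHD2 and 0 in IgG, and its other row stood at 0 with CHD2 and at 10.8 and 4.36 CPM in IgG. *Hrh1*, a histamine receptor gene, was divided in the same way. These calls are read as uncertain, since reads of identical transcripts can be assigned to either row.

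Among rows of at least 50 CPM in both CHD2 libraries, chosen after the values were seen, the largest ratio was that of the noncoding row joining *Dnm3os*, *Mir214* and *Mir199a-2*, and several further rows with large ratios are named here. *Rbm15*, which encodes an RNA-binding protein of the m6A writer complex that acts on *Xist*, stood at 342 and 242 CPM with CHD2, 3.73 and 12.2 CPM with IgG and 18 and 24.9 CPM in the input (log2 ratio 5.21 ± 0.59, edgeR adjusted p = 0.00631). *Sox11*, a transcription factor gene of neuroblasts, stood at 590 and 466 CPM against 15.1 and 19.6 CPM (log2 ratio 4.93 ± 0.39, edgeR adjusted p = 0.00606). *Rest*, the repressor of neuronal genes, stood at 137 and 214 CPM against 4.69 and 10.9 CPM (log2 ratio 4.51 ± 0.59, edgeR adjusted p = 0.00665). In each of these the lowest CHD2 library was over both input libraries. *Sox4*, *Six4* and *Onecut2*, all transcription factor genes, had log2 ratios of 5.08 ± 0.82, 5.12 ± 0.68 and 4.96 ± 0.70. *Pigm*, whose enzyme builds the glycolipid anchor of membrane proteins, had a log2 ratio of 4.81 ± 0.42 with a transcript of 7569 bases in a single exon.

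By level per length, *Malat1* was among the most abundant RNAs in the CHD2 libraries, at 4180 and 2580 TPM, against 69.6 and 159 TPM with IgG. The highest called mRNAs were *Noct*, a circadian phosphatase gene, at 2497 and 4892 TPM with CHD2 against 97.6 and 425 TPM with IgG, and *Map1b*, a microtubule-associated protein gene, at 2225 and 3380 TPM against 195 and 643 TPM. *Ddx5* and *Ddx17*, which encode related RNA helicases of the nucleus, stood at 2560 and 2280 TPM and at 1273 and 1507 TPM with CHD2, against 304 and 430 TPM and 74 and 91.9 TPM with IgG. Their log2 ratios were 2.54 ± 0.37 and 3.75 ± 0.41 (edgeR adjusted p = 0.00725 and 0.00606). *Actb*, which was not called, stood at 9910 and 8251 TPM with CHD2, above all of these.

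Several gene families chosen after the values were seen are given as a description. Of all rows tested 11.1% were higher, of those of 4 to 6 kb 18.3% and of those over 6 kb 27%. Of the 8 SMAD genes tested, which carry TGF-beta and BMP signals, 6 were higher, led by the inhibitory *Smad7* (log2 ratio 3.45 ± 0.39), while *Smad1* and *Smad3* were not called. Without IgG 1, 4 of the 8 were higher. Of 10 CCR4-NOT genes 6 were higher, among them the deadenylase subunits *Cnot6*, *Cnot6l* and *Cnot7*, with log2 ratios of 2.65, 2.48 and 1.95, while the scaffold *Cnot1* was not called (log2 ratio 1.02). Of 9 Frizzled receptors for Wnt ligands 5 were higher, with log2 ratios from 2.68 (*Fzd6*) to 3.35 (*Fzd5*), while *Fzd1*, *Fzd2*, *Fzd8* and *Fzd9* were not called. Of 14 Kruppel-like factors 7 were higher (50%), of 41 BTB zinc finger genes 15 (36.6%), and of 47 ubiquitin-specific protease genes 11 (23.4%). Subtracting the trend with length left median log2 ratios of 1.51, 0.52 and 0.01 in these 3 families. Of 35 collagen genes 0 were higher and 1 was lower by edgeR, with 0 higher and 1 lower both at an unadjusted p under 0.05 and by DESeq2.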

How the data were processed

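RNA from CHD2 and IgG immunoprecipitates and input of Neuro2a cells was sequenced by the authors after ribosomal RNA depletion. The authors deposited one table per library with the RSEM expected count, TPM and FPKM of each RefSeq gene (mm9), made with Bowtie2 per the labels. Their versions are not given in the sources used here. The expected counts were not normalized between libraries. TPM served for levels between genes, and FPKM for one rule below. Introns were not counted, and rows that join several genes (345 of 24990) or stand for an accession at several loci (1085) can hold divided reads.

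The expected counts were turned into whole numbers by rounding. Under R 4.3.3, CHD2, IgG and input libraries entered one edgeR 4.0.16 model with its default expression filter and TMM factors. CHD2 was compared with IgG by the quasi-likelihood test, and p-values were adjusted after Benjamini and Hochberg over 14906 rows. The threshold was an adjusted p of 0.05. CPM values use TMM-scaled library sizes. Totals of 7621280 to 20050487 counts per library bear on the precision, and floors cover counting error only. SE is the absolute log2 ratio divided by the square root of F of the quasi-likelihood test. It therefore includes the estimated spread between these libraries. On simulated counts for this comparison (14906 rows, 200 changed), 80.5% of log2 changes of 3 and 0% of those of 1.5 were recovered. The data held more called rows, 1651 higher and 56 lower, among them *Pvt1* at a log2 ratio of 1.31. The adjusted threshold depends on that number, so these percentages are not the recovery in the data. DESeq2 1.42.0 and other alternatives are given in the closing section.

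Gene classes were taken from RefSeq accession types (coding or noncoding), the length column of the files, and GENCODE vM1 (mm9), matched for 87.5% of rows, for span, exons and GC content. List members with the same symbol counted once. Members and lists were chosen with earlier results of these data known. Genes were named by rule: the genes of the study, up to 10 rows in each direction with the largest ratio among called rows without overlap and with a mean FPKM of at least 1, up to 3 called members in each direction and the 2 most abundant of each list, and every tested nuclear long noncoding RNA.

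Replicate numbers of CHD2 and IgG libraries had a correlation of 0.174 over 2 pairs and were not treated as pairs. Values of some genes are not reported here.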

Additional observations from a re-analysis of the deposited data

How the results depend on the processing

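The number of rows higher with CHD2 was 1651, and lay within 1.5 times of it under DESeq2 (2460), without a filter (2210), with at least 10 counts in every library (1835), with the CHD2 and IgG libraries alone (1159), with scaling and dispersion from transcripts of 1 to 6 kb (1529), with upper-quartile scaling (1410) and, chosen after seeing the data, with a mean of at least 10 CPM (1630). It was 716 with scaling by total counts alone and 2718 with the replicate number as a block, and from 0 to 3465 when a library was left out. The number of lower rows, 56, was 20 with CHD2 and IgG libraries alone, 91 with total counts, 110 with scaling from 1 to 6 kb, 112 with a mean of at least 10 CPM, 117 with at least 10 counts in every library, 353 without a filter, 1039 with the replicate block, 1137 under DESeq2 and 1206 with upper-quartile scaling, and from 0 to 3003 when a library was left out. The counts of 0 belong to the fits without CHD2 1 or CHD2 2, in which the remaining CHD2 library is assumed to vary like the other groups. The cause of these differences was not tested. With the replicate block, 1647 of the 1651 higher and 55 of the 56 lower rows were called, and the numbers are not known to mark a shared culture.

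The median log2 ratio of noncoding rows, zinc finger genes, transcripts over 6 kb, replication-dependent histones and ribosomal proteins kept its sign under each alternative. That of all rows moved from 0.02 to -0.17 with total counts and -0.28 with upper-quartile scaling. The median of noncoding rows (1.34) was 1.09 with at least 10 counts in every library, 1.06 without a filter and 1.05 with upper-quartile scaling, and 0.77 to 1.35 when a library was left out. That of zinc finger genes (1.07) was 0.78 with upper-quartile scaling and 0.82 with the length trend subtracted, and 0.74 to 1.09 when a library was left out. That of transcripts over 6 kb (0.66) was 0.48 with total counts and 0.35 with upper-quartile scaling, and 0.23 to 0.58 when a library was left out. That of replication-dependent histones (0.61) was 1.08 with the length trend subtracted and 0.22 to 0.95 when a library was left out. That of ribosomal proteins (-0.62) was -0.71 under DESeq2, -0.66 with scaling from 1 to 6 kb, with a mean of at least 10 CPM and without a filter, -0.80 with total counts, -0.92 with upper-quartile scaling, -0.21 with the length trend subtracted, and -0.89 to -0.61 when a library was left out.

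Of 80 called rows that the text could name, 43 kept their call under each alternative with all libraries and 65 did so without IgG 1. Among uncalled rows 9 took the other sign. With upper-quartile scaling the log2 ratio was -0.090 for *H3c2*, -0.274 for *Oip5os1*, -0.259 for *Rmrp*, -0.246 for *Mrpl10*, -0.083 for *Mrpl12*, -0.088 for *Atf4* and -0.063 for *Pcdh1*. With total counts it was -0.022 for *H3c2*, -0.135 for *Oip5os1*, -0.113 for *Rmrp* and -0.122 for *Mrpl10*. Under DESeq2 it was -0.052 for *Oip5os1*, -0.063 for *Rmrp* and -0.033 for *Mrpl10*, with scaling from 1 to 6 kb -0.007 for *Oip5os1* and -0.006 for *Rmrp*, without a filter -0.002 for *Oip5os1*, and with the block -0.130 for *Rmrp*. When a library was left out, the log2 ratio ranged from -0.505 to 0.990 for *H3c2*, -0.102 to 0.531 for *Peg13*, -0.408 to 0.323 for *Oip5os1*, -1.259 to 0.438 for *Rmrp*, -0.197 to 0.059 for *Mrpl10*, -0.248 to 0.226 for *Mrpl12*, -0.156 to 0.454 for *Atf4*, -0.221 to 0.271 for *Pcdh1* and -0.675 to 2.832 for *Fbln2*. In simulated data with 200 changed rows, 0% of log2 changes of 1.5 and 80.5% of those of 3 were recovered. The data held more called rows, some of them at ratios below 1.5, so these percentages are not the recovery in the data.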
